A study of Mus musculus with 6 samples.

Results

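The Notch genes described here are 10 of the 55286 gene symbols in a count table of mouse RNA: the receptors Notch1, Notch2 and Notch3, the ligands Dll1, Jag1 and Jag2, and the nuclear effectors Hes1, Hes6, Hey1 and Heyl. They were chosen by name, with earlier results of these data known, and all 10 were among the 17400 genes tested. RNA was sequenced from 2 libraries of cells made by direct reprogramming (named transdifferentiated cells in the source field), 2 of muscle and 2 of mouse embryonic fibroblasts (MEF, cells grown from the mouse embryo). Per its title, the series concerns trans-differentiation and developmental DNA methylation. The libraries were made from polyadenylated RNA with a kit that keeps strand and held between 16817033 and 24584951 counts. The count columns of MEF, Muscle and Direct reprogramming carry the tags STauMEF, SEndomuscle and SiMuscle, which the labels do not explain. The sources used here do not name the strain, the converting factor, the time since conversion or the muscle's origin and age. Nor do they say if replicates are separate cultures or animals, so p-values measure the spread between these libraries, which may be technical.

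Notch receptors sit in the cell membrane and are switched on by Delta and Jagged ligands on a neighbouring cell. The bound receptor is cleaved, and its intracellular part enters the nucleus and joins the DNA-binding protein Rbpj. Together they turn on Hes and Hey genes such as Hes1, Hey1 and Heyl, which code for transcriptional repressors. Hes6 is grouped with these genes by family, and it opposes Hes1. In skeletal muscle this pathway is known for holding myogenic progenitors and satellite cells, the stem cells of muscle, back from differentiation.

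Skeletal muscle markers, 10 genes including Myod1, Ckm and Ttn, summed to between 43500 and 62100 CPM in Direct reprogramming libraries, 57100 to 63000 in Muscle libraries and 262 to 401 in MEF libraries. Fibroblast markers, 10 genes including Pdgfra and Col1a1, summed to 12500 to 15600 CPM in Direct reprogramming, 6780 to 12500 in Muscle and 16900 to 26500 in MEF. Most of the Muscle sum was collagen (Col1a1 at a mean of 6071, Col1a2 at 2293 and Col3a1 at 1116 CPM), and 8 of the 10 were called lower in Muscle than in MEF, with a median log2 fold change of -2.56. Pdgfra, for example, averaged 6.07 CPM in Muscle and 90.6 CPM in MEF. In Direct reprogramming versus MEF the markers were mixed: 2 were called higher (Col3a1 and Lum), 3 lower and 5 not called. Of all tested genes, 15.9% were called higher and 11.3% lower there. Pdgfra was among those not called, and Dcn averaged 409 CPM in Direct reprogramming and 413 in MEF. CPM is a gene's count relative to 1e+06 counts of its library, with the library total scaled by TMM, a factor for library composition. In bulk RNA, fewer cells of a type and less RNA per cell cannot be told apart.

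Replicates of a group differed along GC content, and the direction was not the same in all groups. Among the tested genes with a transcript sequence, the fifth with the highest GC (3409 genes) had a median log2 difference, replicate 2 minus replicate 1, of 0.56 in Direct reprogramming, -0.30 in Muscle and -0.59 in MEF. The fifth with the lowest GC gave -0.50 in Direct reprogramming, 0.27 in Muscle and 0.49 in MEF. Most of the Notch genes are GC-rich: 9 of 10 lay above the tested genes' median of 49.8%, with Jag2 at 61.9%, Hes6 at 61.7% and Notch3 at 59.6%, and Jag1 was below it at 48.8%. Direct reprogramming replicate 2 was above replicate 1 for 9 of the 10 Notch genes, by up to 1.03 log2 units for Notch1, with Hey1 as the exception at -0.24. MEF replicate 2 was below replicate 1 for 9 of 10, by as much as -0.86 for Notch3. This spread enters the error of every comparison of the receptors, and what caused it was not tested.

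**Figure D1:**
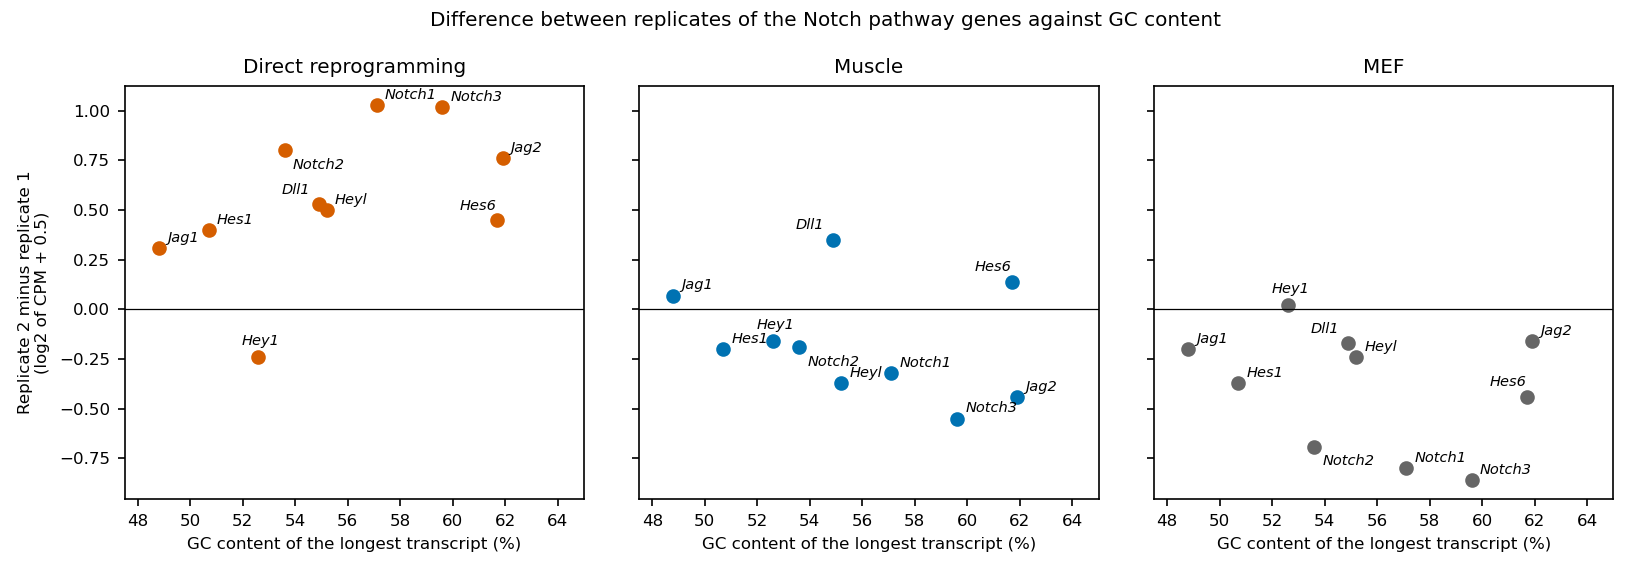
Each point is 1 Notch gene. The horizontal axis is the GC content of its longest transcript in percent, and the vertical axis is the log2 difference between replicate 2 and replicate 1 of a group, computed on CPM + 0.5. Points lie mostly above 0 in Direct reprogramming and mostly below 0 in MEF, and the receptors lie farthest from 0 in both.

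Promoter sequence was available for 7 of the 10 genes, from RefSeq on GRCm38.p6 as the 250 bases before a gene's start. The windows of Hes6, Dll1 and Jag2 are shown because these genes were higher in both muscle groups than in MEF. All 3 lie on the minus strand and are written 5′ to 3′ with the motif CANNTG in capitals. CANNTG is the E-box, the kind of site that MyoD-family proteins bind. Hes6 and Dll1 each have 2 annotated starts, and the Hes6 windows and the farther Dll1 window are given.

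Hes6, chr1:91414039-91414288: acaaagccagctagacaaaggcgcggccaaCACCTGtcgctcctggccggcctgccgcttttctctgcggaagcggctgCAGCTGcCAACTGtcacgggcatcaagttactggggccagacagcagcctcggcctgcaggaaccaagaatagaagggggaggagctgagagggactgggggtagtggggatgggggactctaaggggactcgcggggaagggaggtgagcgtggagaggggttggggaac

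Hes6, chr1:91413223-91413472: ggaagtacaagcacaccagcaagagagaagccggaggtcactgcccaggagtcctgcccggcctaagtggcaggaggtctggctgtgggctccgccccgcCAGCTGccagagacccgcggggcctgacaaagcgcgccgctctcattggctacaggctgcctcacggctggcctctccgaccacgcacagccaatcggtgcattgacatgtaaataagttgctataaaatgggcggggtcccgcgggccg

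Dll1, chr17:15376933-15377182: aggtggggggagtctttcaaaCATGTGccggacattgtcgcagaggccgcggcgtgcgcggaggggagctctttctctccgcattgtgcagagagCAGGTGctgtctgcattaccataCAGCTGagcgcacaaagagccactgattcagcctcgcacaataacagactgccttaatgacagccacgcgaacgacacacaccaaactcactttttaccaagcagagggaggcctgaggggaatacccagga

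Jag2, chr12:112929496-112929745: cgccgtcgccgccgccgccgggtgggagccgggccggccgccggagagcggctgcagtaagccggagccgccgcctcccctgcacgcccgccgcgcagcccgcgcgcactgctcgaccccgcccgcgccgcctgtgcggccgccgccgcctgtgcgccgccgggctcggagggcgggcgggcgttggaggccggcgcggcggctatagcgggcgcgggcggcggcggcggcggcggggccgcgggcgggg

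The motif CANNTG, which reads the same on both strands in its fixed letters, occurred 3 times in the first Hes6 window and 1 time in the second. It occurred 3 times in the Dll1 window shown, 1 time in the other Dll1 window, and was not found in that of Jag2. Of all 32851 promoter windows of this length, 66.2% held at least 1. The narrower CAGCTG, which is one form of CANNTG, was found 1 time in each Hes6 window, 1 time in the Dll1 window shown and 1 time in that of Jag1, and 13% of all windows held it. TGGGAA, the core of the site that Rbpj binds, was searched on both strands and was in none of the windows of the 7 genes, against 21.6% of all windows. The windows of Notch1, Notch2 and Notch3 held none of these motifs.

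The largest differences from MEF were in the ligands Jag2 and Dll1 and the effectors Hes6 and Heyl, while Notch2, Jag1 and Hes1 gave smaller differences in the other direction. Against MEF, Direct reprogramming was higher in 5 of the 10 Notch genes (Dll1, Jag2, Hes6, Hey1 and Heyl), lower in 3 (Notch2, Jag1 and Hes1), and 2 did not pass the test. Calls were made at 0.05 on the adjusted p of edgeR's quasi-likelihood test over all tested genes, of which 27.3% were called in this comparison, 15.9% higher and 11.3% lower. Against MEF, Muscle was higher in 4 (Dll1, Jag2, Hes6 and Heyl) and lower in 2 (Notch2 and Hes1), where 35.6% of all tested genes were called, 17.3% higher and 18.3% lower. Direct reprogramming was called higher than Muscle in 1 (Hey1) and lower in 1 (Jag2), against 10% (1747 of 17400) of all tested genes called, 7.58% higher and 2.46% lower. The median log2 fold change over the 10 was 1.12 for Direct reprogramming versus MEF, 0.55 for Muscle versus MEF and -0.27 for Direct reprogramming versus Muscle, beside 0.07, 0.00 and 0.03 over all tested genes. Because the 10 were chosen with earlier results of these data known, these counts and medians cannot test for an excess over all genes. Each pair of comparisons shares a group, the first pair the MEF libraries, so their values are given side by side and are not independent. In Direct reprogramming versus MEF, the libraries did not overlap for 8 of the 10, beside 60.6% of all tested genes. The figures were 8 and 68.8% for Muscle versus MEF, and 5 and 48.9% for Direct reprogramming versus Muscle. A gap between the libraries of 2 groups is thus common in these data and is no call by itself.

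**Figure D2:**
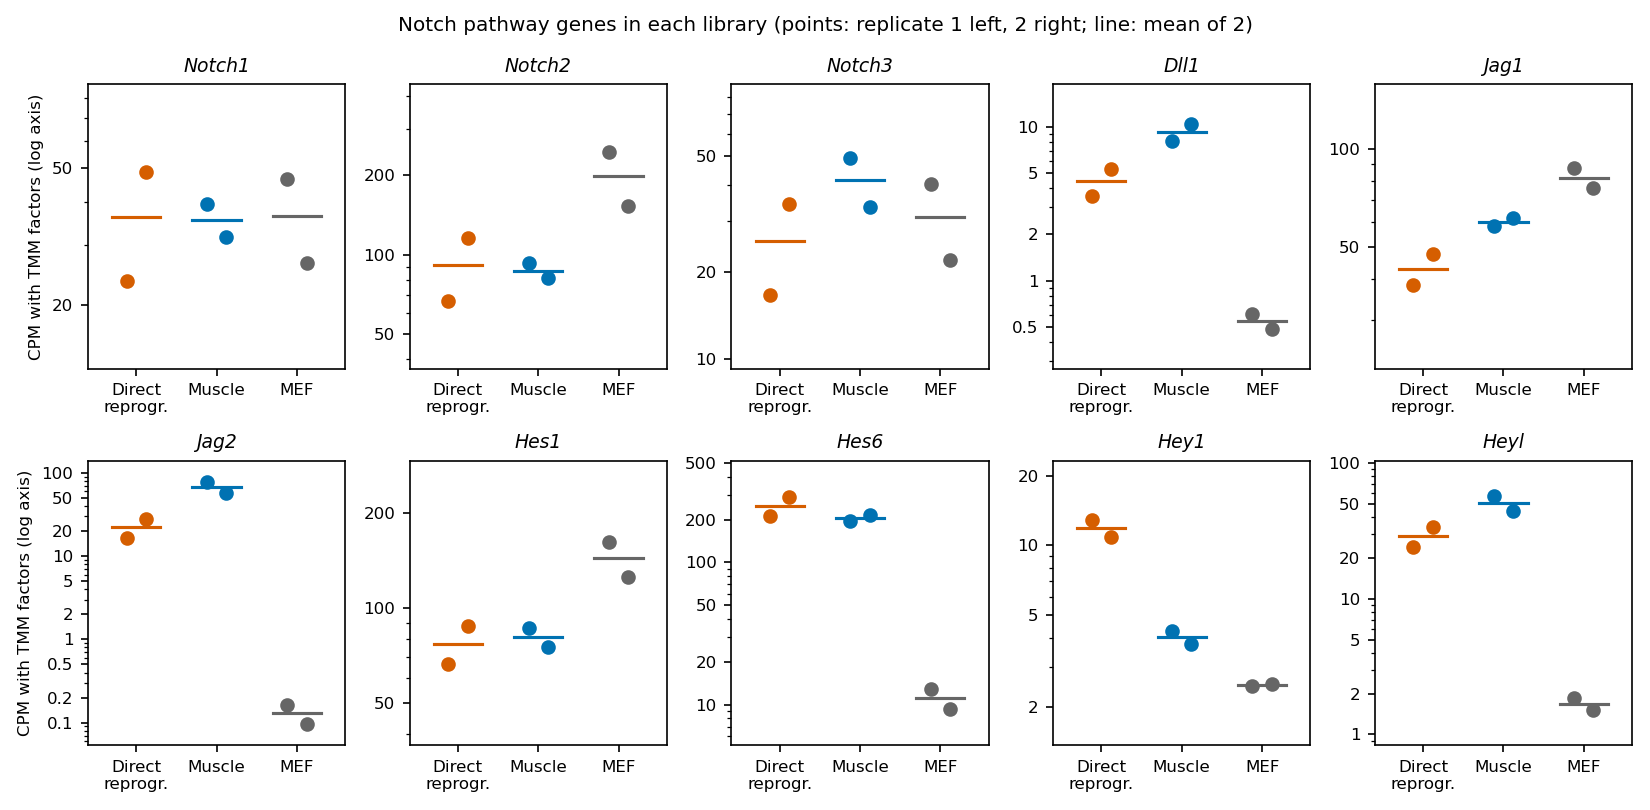
Each panel is 1 Notch gene on its own log axis of CPM with TMM factors. Points are libraries, replicate 1 left and replicate 2 right, and the line is the mean of 2. Jag2, Dll1, Hes6 and Heyl in Direct reprogramming and Muscle lie far above MEF, Hey1 is highest in Direct reprogramming, and the points of Notch1 and Notch3 overlap between all groups.

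Jag2 showed the largest difference of the 10. This Jagged-family ligand, which lies on the minus strand at chr12:112907819-112929776 (mm10, GENCODE M21 gene model), had 16.5 and 28.2 CPM in Direct reprogramming, 77.1 and 56.9 CPM in Muscle, and 0.165 and 0.0971 CPM in MEF. MEF libraries held 3 and 2 counts, at or under the limit of 3 counts that a count of 0 would allow, while Direct reprogramming libraries held 293 and 583. The pooled counts gave a ratio of 177 for Direct reprogramming over MEF (95% Poisson interval 75.4 to 545) and of 534 for Muscle over MEF (228 to 1640). These intervals cover counting error only. The fitted log2 fold changes were 7.36 ± 0.53 (SE; edgeR adjusted p = 1.9e-05) and 8.95 ± 0.53 (6.0e-06).

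Jag2 was also lower in Direct reprogramming than in Muscle, with a mean of 22.3 ± 8.31 CPM in Direct reprogramming and 67.0 ± 14.3 CPM in Muscle (SD, n = 2 each). The libraries of these groups did not overlap, and the log2 fold change was -1.58 ± 0.34 (edgeR adjusted p = 0.0185). The call was lost without Direct reprogramming replicate 1, without Muscle replicate 1 or without Muscle replicate 2, where the adjusted p reached at most 0.144.

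Dll1, the Delta ligand that keeps muscle progenitors undifferentiated in the mouse embryo (chr17:15367354-15376872, minus strand), had 3.54 and 5.32 CPM in Direct reprogramming, 8.10 and 10.5 CPM in Muscle, and 0.605 and 0.485 CPM in MEF. MEF libraries were lowest, with 11 and 10 counts, and no group overlapped another. The log2 fold change was 3.01 ± 0.45 for Direct reprogramming versus MEF (8.12-fold; edgeR adjusted p = 0.00142) and 4.08 ± 0.46 for Muscle versus MEF (17-fold; adjusted p = 0.00019). Direct reprogramming versus Muscle gave -1.06 ± 0.38, which did not pass the test (adjusted p = 0.135). With GC content as an offset in the fit, an alternative chosen after seeing the data, it was -1.08 ± 0.32 and passed (adjusted p = 0.0403). That offset also raised the number of all tested genes called lower in this comparison from 428 to 1230. The antisense gene A930024N18Rik overlaps Dll1, and since the strand setting of the counting is not given, reads of the pair cannot be told apart.

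Jag1, the other Jagged ligand of the list (chr2:137081456-137116644, minus strand), ran the other way. It had 38.5 and 47.8 CPM in Direct reprogramming, 58.3 and 61.4 CPM in Muscle, and 87.3 and 76.0 CPM in MEF. The 3 groups did not overlap, with Direct reprogramming lowest and MEF highest. Jag1 was lower in Direct reprogramming than in MEF, at -0.92 ± 0.25 on the log2 scale (edgeR adjusted p = 0.0246). The changes of -0.45 ± 0.25 for Muscle versus MEF (adjusted p = 0.197) and -0.47 ± 0.25 for Direct reprogramming versus Muscle (0.336) did not pass.

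Of the 3 receptors, Notch2 was called against MEF and Notch1 and Notch3 were not. Notch1, a receptor found on most progenitor cells (chr2:26457903-26516663, minus strand), had 23.6 and 48.6 CPM in Direct reprogramming, 39.4 and 31.5 CPM in Muscle, and 46.4 and 26.4 CPM in MEF. The highest and the lowest library were replicates of the same group, and all groups overlapped. The log2 fold changes were -0.01 ± 0.40 for Direct reprogramming versus MEF, -0.04 ± 0.40 for Muscle versus MEF and 0.03 ± 0.40 for Direct reprogramming versus Muscle (edgeR adjusted p = 0.987, 0.951 and 0.986). With 2 libraries a group, errors of this size do not show that the levels were alike. Genes on the opposite strand overlap Notch1 (0610009E02Rik and Gm13568) and Notch3 (Gm17276), so their counts carry the same doubt as those of Dll1.

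Notch3, known for its role in vascular mural cells and in satellite cells (chr17:32120820-32166852, minus strand), had 16.7 and 34.3 CPM in Direct reprogramming, 49.2 and 33.6 CPM in Muscle, and 40.1 and 21.9 CPM in MEF. Its groups overlapped too, although Muscle had the highest library. The log2 fold changes were -0.28 ± 0.42 for Direct reprogramming versus MEF, 0.42 ± 0.42 for Muscle versus MEF and -0.70 ± 0.42 for Direct reprogramming versus Muscle (edgeR adjusted p = 0.671, 0.485 and 0.426). With the GC offset, Notch3 passed in the comparison of Muscle with MEF at 0.61 ± 0.20 (adjusted p = 0.0237) and in that of Direct reprogramming with Muscle at -0.74 ± 0.20 (0.024). The offset was chosen after seeing the data and raised the number of calls over all tested genes in both comparisons.

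Notch2, the receptor with the most counts per length in all 3 groups (chr3:98013527-98150361, plus strand), had lower levels outside MEF. It had 66.3 and 116 CPM in Direct reprogramming, 92.5 and 81.3 CPM in Muscle, and 247 and 153 CPM in MEF. Both MEF libraries were above all others, and Direct reprogramming and Muscle overlapped. Notch2 was 2.2-fold lower in Direct reprogramming than in MEF (log2 fold change -1.13 ± 0.34, edgeR adjusted p = 0.0385) and 2.3-fold lower in Muscle than in MEF (-1.20 ± 0.34, 0.0243). Direct reprogramming versus Muscle gave 0.07 ± 0.34 (0.959).

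Among the effectors, Hes6 and Heyl were high in both muscle groups. Hes6, which in mouse cells opposes Hes1 and promotes muscle differentiation, lies on the minus strand at chr1:91411483-91414038. It had 211 and 287 CPM in Direct reprogramming, 196 and 215 CPM in Muscle, and 12.9 and 9.37 CPM in MEF. Direct reprogramming and Muscle overlapped, and both were far above MEF. The log2 fold change was 4.49 ± 0.31 for Direct reprogramming versus MEF (22.4-fold; edgeR adjusted p = 1.7e-05), 4.21 ± 0.31 for Muscle versus MEF (18.5-fold; 1.8e-05) and 0.28 ± 0.27 for Direct reprogramming versus Muscle (0.674).

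Heyl, a Notch-induced repressor of the Hey family that is found in satellite cells (chr4:123233556-123249875, plus strand), had 23.9 and 34.0 CPM in Direct reprogramming, 57.7 and 44.5 CPM in Muscle, and 1.871 and 1.504 CPM in MEF. The groups did not overlap, with Muscle highest and MEF lowest. Heyl was 17.1-fold higher in Direct reprogramming than in MEF (log2 4.10 ± 0.35, edgeR adjusted p = 5.7e-05) and 30.3-fold higher in Muscle than in MEF (4.92 ± 0.36, 1.7e-05). Direct reprogramming versus Muscle gave -0.82 ± 0.29, which did not pass (0.135) but did with the GC offset (-0.81 ± 0.18, adjusted p = 0.011). That offset, chosen after seeing the data, raised the number of calls over all tested genes as well.

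Hey1, a related Notch-induced repressor (chr3:8663359-8667256, minus strand), was highest in Direct reprogramming. It had 12.9 and 10.8 CPM in Direct reprogramming, 4.26 and 3.77 CPM in Muscle, and 2.48 and 2.52 CPM in MEF. The 3 groups did not overlap. Hey1 was 4.74-fold higher in Direct reprogramming than in MEF (log2 2.24 ± 0.35, edgeR adjusted p = 0.00169) and 2.95-fold higher in Direct reprogramming than in Muscle (1.56 ± 0.34, 0.0197). Muscle versus MEF gave 0.68 ± 0.35 and did not pass (0.16). The call against Muscle was lost without Direct reprogramming replicate 1 or without either Muscle replicate, with an adjusted p of up to 0.173.

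Hes1, the best known Notch-induced repressor (chr16:30064384-30067796, plus strand), had 66.4 and 87.5 CPM in Direct reprogramming, 86.4 and 75.4 CPM in Muscle, and 163 and 126 CPM in MEF. Both MEF libraries were above all others, and Direct reprogramming and Muscle overlapped. Hes1 was 1.87-fold lower in Direct reprogramming than in MEF (log2 -0.90 ± 0.27, edgeR adjusted p = 0.0343) and 1.78-fold lower in Muscle than in MEF (-0.83 ± 0.27, 0.0375). Direct reprogramming versus Muscle gave -0.07 ± 0.26 (0.939).

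The higher calls against MEF were firmer than the lower ones. The 5 genes higher in Direct reprogramming and the 4 higher in Muscle kept their calls in all 16 alternatives. Notch2, Jag1 and Hes1, lower in Direct reprogramming than in MEF, each lost the call without Direct reprogramming replicate 1, MEF replicate 1 or either Muscle replicate, with an adjusted p of up to 0.179 for Notch2, 0.15 for Jag1 and 0.187 for Hes1. Notch2 and Hes1 in Muscle versus MEF lost theirs without MEF replicate 1 or either Muscle replicate, at up to 0.15 for Notch2 and 0.235 for Hes1. Leaving out a Muscle library bears on Direct reprogramming versus MEF through the spread, which the 3 groups share.

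**Figure D3:**
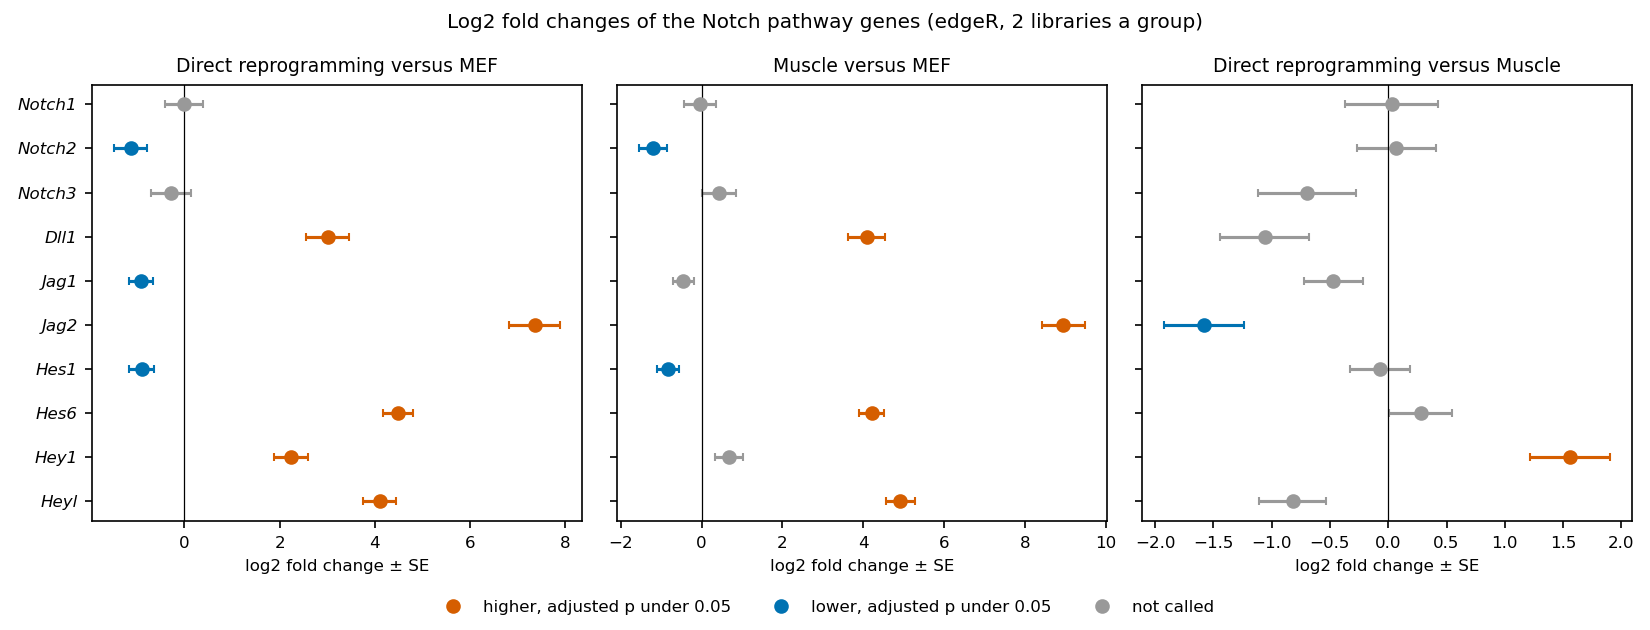
Log2 fold changes of the 10 Notch genes in the 3 comparisons, each panel on its own axis, with bars for the SE from edgeR. Orange marks genes called higher, blue genes called lower and grey genes not called. Jag2 reaches 7.36 and 8.95 against MEF, while Notch1 lies near 0 in all 3 panels.

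Levels were then set beside each other per length, as CPM per kilobase of merged exons (CPM per kb). This allowed genes to be compared within a library. Merged exons can be longer than the longest transcript, so the shares depend on this choice of length, which the SD does not cover. Notch2 made up 60.1 ± 2.88% of the summed level of the 4 receptors in Direct reprogramming, 50.4 ± 3.99% in Muscle and 74.2 ± 1.69% in MEF (SD, n = 2 each). The share of Notch3 was 21.9 ± 1.51% in Direct reprogramming, 31.5 ± 3.14% in Muscle and 15.1 ± 0.983% in MEF. In Direct reprogramming and MEF, the receptor shares varied less between replicates than the CPM values did. The summed receptor level was 9.89 and 18.5 CPM per kb in Direct reprogramming, 18.0 and 14.2 in Muscle, and 31.3 and 18.8 in MEF. Direct reprogramming replicate 1 was lowest and MEF replicate 1 highest, so the replicates of these groups lay far apart.

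Ligand composition separated Direct reprogramming from MEF, which the summed level did not. Jag1 took 62.2 ± 3.78% of the summed ligand level in Direct reprogramming, 46.5 ± 4.48% in Muscle and 98.5 ± 0.428% in MEF. Jag2 took 26.3 ± 4.36% in Direct reprogramming, 43.3 ± 6.66% in Muscle and 0.131 ± 0.0364% in MEF, and Dll1 took 8.70 ± 0.646%, 10 ± 2.39% and 0.906 ± 0.0568% in the same groups. The summed ligand level was 10.2 and 13.8 CPM per kb in Direct reprogramming, 23.1 and 21.2 in Muscle, and 15.2 and 13.3 in MEF. The sums of Direct reprogramming and MEF overlapped although their make-up did not, and those of Muscle lay above both. The order of Jag1 and Jag2 in Muscle depended on the length used. Their longest transcripts have 5612 and 5106 bases, against 5827 and 6965 bases of merged exons. Per base of longest transcript, Jag2 (mean 67.0 CPM) stood above Jag1 (59.8 CPM) in Muscle.

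Hes6 was the most abundant Hes or Hey gene in Direct reprogramming and Muscle, and Hes1 in MEF. Hes6 held 74.3 ± 0.866% of the summed Hes and Hey level in Direct reprogramming, 69 ± 3.85% in Muscle and 7.83 ± 0.311% in MEF. Hes1 held 20.4 ± 0.246% in Direct reprogramming, 24.1 ± 2.6% in Muscle and 90.4 ± 0.22% in MEF. The summed level was 158 and 212 CPM per kb in Direct reprogramming, 163 and 166 in Muscle, and 88.5 and 68.1 in MEF. Most of the sum in Direct reprogramming and Muscle was thus Hes6, which opposes Hes1, so the sum does not measure Notch activity. Hes5, which Notch induces in neural cells, had 0 counts in every library. These shares are descriptions with 2 libraries a group, and an exact permutation test of 2 against 2 cannot go below a two-sided p of 0.333.

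**Figure D4:**
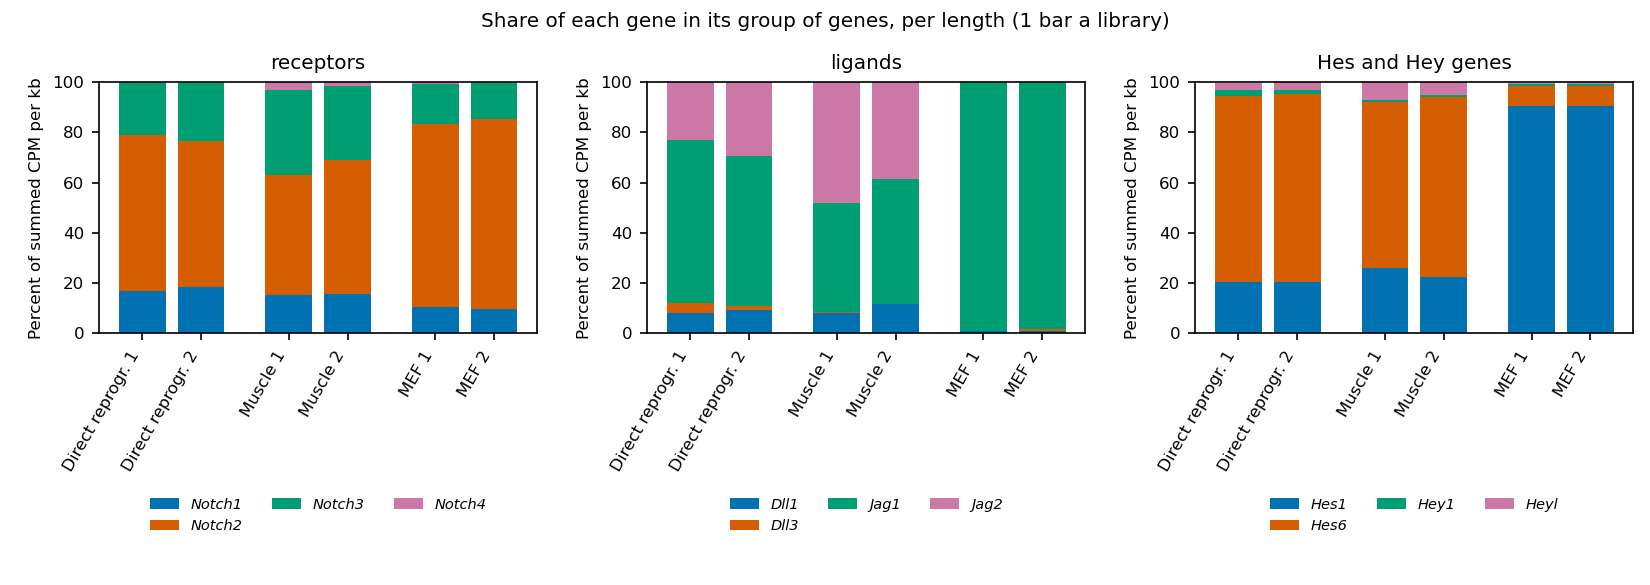
Stacked bars give, for each library, the percent that each gene takes of the summed CPM per kb of the receptors, the ligands, or the Hes and Hey genes. Genes under 0.5% in every library are not drawn. Jag2 and Dll1 are hardly visible in the MEF bars, and Hes6 takes the largest part in Direct reprogramming and Muscle where Hes1 does in MEF.

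The order of genes at near levels depends on the length used, here merged exons. Across the 10 genes, the order of mean levels per kb began with Hes6 at 138 CPM per kb and Hes1 at 37.8 in Direct reprogramming. These were followed there by Notch2 at 8.43, Jag1 at 7.40 and Heyl at 5.66, whose replicates overlapped from one to the next. Hey1 at 3.63, Jag2 at 3.21, Notch3 at 3.15 and Notch1 at 2.54 overlapped likewise, and Dll1 was last in that group at 1.05 CPM per kb. In Muscle the order began with Hes6 at 114 and Hes1 at 39.7, then Jag1, Heyl, Jag2 and Notch2 between 10.3 and 8.06, whose libraries also overlapped. Notch3 at 5.12 came next, then Notch1 at 2.49 and Dll1 at 2.20, which overlapped, and Hey1 at 1.23. In MEF it began with Hes1 at 70.8, Notch2 at 18.5 and Jag1 at 14.0, the last pair overlapping. Hes6 at 6.15 stood apart from Notch3 at 3.84 and Notch1 at 2.56, which overlapped, and the list ended with Hey1, Heyl, Dll1 and, at 0.0188 CPM per kb, Jag2.

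The rest of the pathway was read from lists of 73 further genes, of which 64 were tested. In Direct reprogramming versus MEF, 9 were higher, 9 were lower and 46 did not pass, with a median log2 fold change of -0.08, where 15.9% of all tested genes were called higher and 11.3% lower. In Muscle versus MEF, 13 were higher, 12 lower and 39 did not pass, with a median of -0.34, where 17.3% of all tested genes were called higher and 18.3% lower. Direct reprogramming versus Muscle had 5 higher, 2 lower and 57 that did not pass, with a median of 0.02, where 7.58% of all tested genes were called higher and 2.46% lower. Counts this near those shares are no result about the pathway, and the same shares apply to the smaller lists. Of 10 receptor cleavage genes tested, 2 were lower in Direct reprogramming than in MEF, 1 was higher in Muscle than in MEF, and 0 were called between Direct reprogramming and Muscle. The 4 tested genes of receptor glycosylation had 2 lower in Direct reprogramming than in MEF, 2 lower in Muscle than in MEF and 0 called between Direct reprogramming and Muscle. The 10 corepressors had 2 lower against MEF in each of these groups, and 1 was higher in Direct reprogramming than in Muscle. Of 9 genes of receptor turnover and inhibition, 2 were higher and 1 lower against MEF in each of these groups.

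**Figure D5:**
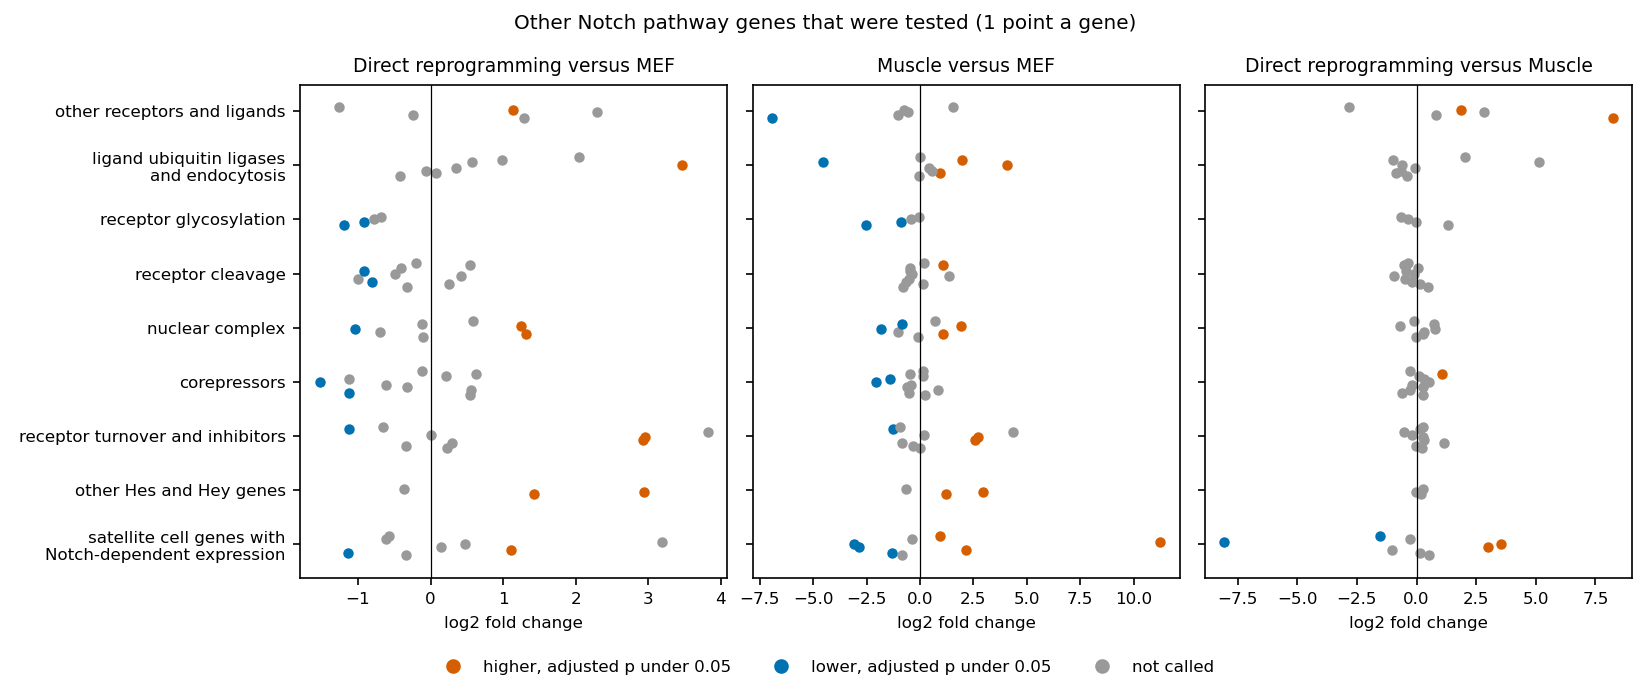
Each point is the log2 fold change of 1 tested gene, in rows by its role in the pathway and in 3 panels by comparison, each on its own axis. Orange points are called higher and blue points lower. Most points are grey and near 0, and the points farthest out in the panel of Direct reprogramming versus Muscle are Dlk1 at 8.22 and Pax7 at -8.06.

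Among genes that act on ligands and on receptor turnover, Neurl1a, Fbxw7 and Dtx4 were higher in Direct reprogramming and in Muscle than in MEF. Neurl1a, an E3 ubiquitin ligase of the Neuralized family that acts on ligands, had 135 and 270 CPM in Direct reprogramming, 390 and 233 CPM in Muscle, and 24.9 and 11.8 CPM in MEF. Direct reprogramming and Muscle overlapped and both were above MEF, with log2 fold changes of 3.46 ± 0.49 (edgeR adjusted p = 0.0011) and 4.08 ± 0.51 (0.000361) against MEF. Without MEF replicate 1 these were 4.09 and 4.71, and without Direct reprogramming replicate 2 the first was 2.85. Fbxw7, which marks the intracellular part of Notch for degradation, had 40.0 and 32.3 CPM in Direct reprogramming, 27.1 and 33.5 CPM in Muscle, and 3.36 and 5.92 CPM in MEF. Direct reprogramming and Muscle again overlapped, and Fbxw7 was 7.79-fold higher in Direct reprogramming than in MEF (log2 2.96 ± 0.36, adjusted p = 0.000439) and 6.53-fold higher in Muscle than in MEF (2.70 ± 0.35, 0.000484). Dtx4, a Deltex-family ubiquitin ligase, had 33.5 and 46.5 CPM in Direct reprogramming, 34.1 and 29.6 CPM in Muscle, and 6.33 and 4.27 CPM in MEF. MEF was again below both other groups, and the log2 fold change was 2.92 ± 0.33 for Direct reprogramming versus MEF (0.000314) and 2.59 ± 0.33 for Muscle versus MEF (0.000411).

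In the nucleus, Rbpj had 62.5 and 46.4 CPM in Direct reprogramming, 33.3 and 32.7 CPM in Muscle, and 55.03 and 63.23 CPM in MEF. Direct reprogramming and MEF overlapped, and their difference did not pass (log2 -0.12 ± 0.26, edgeR adjusted p = 0.775). Muscle was below both, and Rbpj was called lower in Muscle than in MEF (log2 -0.84 ± 0.26, adjusted p = 0.0337), a call lost at up to 0.181 without any 1 of the 4 libraries compared. Tle1, a Groucho-family corepressor that Hes proteins recruit, had 18.6 and 29.5 CPM in Direct reprogramming, 18.0 and 15.5 CPM in Muscle, and 77.2 and 61.6 CPM in MEF. MEF stood above both, and Tle1 was lower than in MEF by log2 -1.53 ± 0.31 in Direct reprogramming (adjusted p = 0.00644) and -2.05 ± 0.31 in Muscle (0.00112). Among related repressors, Bhlhe41 had 42.7 and 47.9 CPM in Direct reprogramming, 34.8 and 57.0 CPM in Muscle, and 7.15 and 4.66 CPM in MEF, so that it was 7.67-fold higher in Direct reprogramming than in MEF (adjusted p = 0.000474). Neurl1a, Fbxw7, Dtx4, Tle1, Bhlhe41 and its relative Bhlhe40 kept their calls against MEF in all 16 alternatives in Direct reprogramming. The other 12 calls in Direct reprogramming versus MEF were each lost without at least 1 library.

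Lfng, a Fringe glycosyltransferase that alters how receptors respond to ligands, had 7.24 and 11.2 CPM in Direct reprogramming, 3.75 and 3.59 CPM in Muscle, and 27.2 and 15.3 CPM in MEF. The groups did not overlap, with Muscle lowest. Lfng was lower in Muscle than in MEF in all 16 alternatives (log2 -2.53 ± 0.40, edgeR adjusted p = 0.00142). It was also called lower in Direct reprogramming than in MEF (-1.20 ± 0.38, 0.0456), a call lost without Direct reprogramming replicate 1, MEF replicate 1 or either Muscle replicate, at up to 0.29.

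Among the tested genes of the pathway lists, Direct reprogramming and Muscle differed most in Dlk1 and Pax7. Dlk1, a Delta-like protein that lacks the receptor-binding domain of the other ligands, had 355 and 651 CPM in Direct reprogramming, 2.90 and 0.304 CPM in Muscle, and 268 and 143 CPM in MEF. Muscle was far below both other groups, and its own replicates differed widely. The log2 fold change of Direct reprogramming versus Muscle was 8.22 ± 0.87 (edgeR adjusted p = 0.000685), or 10.66 without Muscle replicate 1 and 7.43 without Muscle replicate 2. In Muscle versus MEF it was -6.93 ± 0.83 (0.000296), or -9.37 without Muscle replicate 1 and -6.14 without Muscle replicate 2. Dlk1 was higher in Direct reprogramming than in MEF in both libraries of each, but that difference did not pass (log2 1.29 ± 0.63, adjusted p = 0.167).

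Pax7, the transcription factor that marks satellite cells, had 1 and 1 counts in Direct reprogramming, 389 and 239 counts in Muscle, and 0 and 0 counts in MEF. It was found in Muscle at 16.6 and 14.5 CPM and was at or under the limit of 3 counts in the other 4 libraries. The pooled level in Direct reprogramming was 303-fold lower than in Muscle (95% Poisson interval 83.5 to 2510; edgeR adjusted p = 0.000251). Muscle was at least 100-fold higher than MEF, taking 3 counts in each MEF library as the bound. Of the 9 satellite cell genes listed for their dependence on Notch, 8 were tested, and Direct reprogramming versus Muscle gave 2 higher and 2 lower, where 7.58% of all tested genes were called higher and 2.46% lower. The higher ones were Col6a1 (log2 2.99 ± 0.29, adjusted p = 0.000444) and Col6a2 (3.56 ± 0.35, 0.000462), collagen VI chains that fibroblasts also make. The lower ones were Pax7 and Spry1, an inhibitor of receptor tyrosine kinase signalling (-1.52 ± 0.30, 0.0144). The call of Spry1 was lost without Direct reprogramming replicate 1 or either Muscle replicate, at up to 0.089. Fibroblast markers moved with the collagens: 8 of the 10 were called higher in Direct reprogramming than in Muscle, and their part in these differences was not tested.

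Other cell types could add Notch RNA to a bulk sample, and their markers were read for that. Macrophage markers, 10 genes including Csf1r and C1qa, summed to 502 to 549 CPM in Direct reprogramming, 11.9 to 17.3 in Muscle and 43.5 to 63.4 in MEF, and all 10 were called higher in Direct reprogramming than in each of the others. In Muscle, Ptprc, Adgre1 and Tyrobp were at 0. Endothelial markers summed to 9.77 to 16.6 CPM in Direct reprogramming, 3.59 to 6.82 in Muscle and 23.2 to 24.5 in MEF. Tie1 was at 0 in Direct reprogramming, Tie1 and Emcn in Muscle, and Cldn5 in MEF. Of the 8 tested, 1 was called higher and 2 lower in Direct reprogramming than in MEF (15.9% and 11.3% of all tested genes). In Muscle versus MEF, 1 was higher and 5 lower (17.3% and 18.3%). Vwf went against the sum, at means of 3.06 CPM in Direct reprogramming, 2.70 in Muscle and 0.578 in MEF. Markers of pericytes and smooth muscle, cells in which Notch3 is best known, summed to 2470 to 3430 CPM in Direct reprogramming, 2890 to 4480 in Muscle and 10500 to 14500 in MEF, with Kcnj8 at 0 in Muscle. Most of that sum was Acta2, at a mean of 2514 CPM in Direct reprogramming, 3296 in Muscle and 10600 in MEF. Of these 10 markers, 7 were called lower and 1 higher in Direct reprogramming than in MEF (11.3% and 15.9% of all tested genes). In Muscle versus MEF, 8 were lower and 1 higher (18.3% and 17.3%). Abcc9 was the higher one in both, by log2 3.79 ± 0.30 in Direct reprogramming (edgeR adjusted p = 3.0e-05) and 4.57 ± 0.31 in Muscle (9.7e-06).

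Schwann and neural markers summed to 203 to 222 CPM in Direct reprogramming, 45.1 to 72 in Muscle and 36.2 to 51.7 in MEF, with Cdh19, Elavl4 and Snap25 at 0 in Muscle and Elavl3 and Snap25 at 0 in MEF. Most of the sum in Direct reprogramming was Dcx, at 187 and 147 CPM, a gene that was also at 62.1 and 34.2 CPM in Muscle, against 0.33 and 0.194 CPM in MEF. The sums hide the other markers. Of the 6 tested, 5 were called lower for Muscle against MEF and 1 higher (18.3% and 17.3% of all tested genes). The median log2 fold change there was -2.91. All 6 were called higher in Direct reprogramming against Muscle (7.58% of all tested genes), with a median of 2.83. For Direct reprogramming against MEF, Dcx was called higher (15.9% of all tested genes) and 5 were not called. Cell cycle genes summed to 124 to 179 CPM in Direct reprogramming, 61.8 to 64.0 in Muscle and 360 to 427 in MEF. The part of macrophages in the higher Hey1 of Direct reprogramming was not tested, nor was that of cycling or mural cells in the higher Notch2, Jag1 and Hes1 of MEF.

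Genes with a profile most like each Notch gene over the 6 libraries were found by the root mean square distance between centred log2 profiles. The candidates were the other tested genes averaging 5 CPM or more, 11279 of them (11280 for Dll1). Profiles were not scaled, so genes that differ little between libraries reach small distances more easily. A near match among so many candidates is a description and does not show shared regulation. Jag1 had the closest match of the 10, Ncstn at 0.0402 log2 units, a subunit of the γ-secretase that cleaves Notch receptors. Ncstn itself had 110 and 132 CPM in Direct reprogramming, 165 and 166 CPM in Muscle, and 253 and 204 CPM in MEF. Next to Hes1 lay Ago1 at 0.0459 and Pfas at 0.0497, and next to Notch2 lay Gnb2 at 0.0495 and Clcn7 at 0.0576. For Heyl the matches were Gm17455 at 0.123 and Tmod4 at 0.16, for Jag2 Myl6b at 0.166 and Adora1 at 0.193, and for Hes6 Lamb3 at 0.164 and Sorbs2 at 0.193. Myl6b, Tmod4 and Sorbs2 code for proteins of the muscle contractile apparatus or its anchoring. Dll1 lay nearest Zbtb18 at 0.117 and Ncam1 at 0.123, Notch1 nearest Ttyh2 at 0.0776 and Sbno2 at 0.0783, Notch3 nearest Isg20 at 0.113 and Cdk2ap2 at 0.128, and Hey1 nearest 2810025M15Rik at 0.138 and Slc9a9 at 0.18. Within the 10, the closest pairs were Notch2 with Hes1 at 0.205, Jag1 with Hes1 at 0.206 and Notch1 with Notch3 at 0.295. All of these distances share the same 6 libraries, with their differences in depth and GC.

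A table of the authors' own comparison was deposited for 2806 genes and names no contrast. For all 2645 of its genes that were tested here, its sign was opposite to that of Muscle versus MEF, so a negative value there goes with a higher level in Muscle. It lists 4 of the 10 Notch genes. The log2 fold changes in the authors' deposited table are -8.65 ± 0.74 for Jag2 (SE; adjusted p = 4.4e-31), -4.73 ± 0.49 for Heyl (4.5e-22), -4.02 ± 0.43 for Hes6 (4.2e-21) and -3.32 ± 1.07 for Dll1 (0.000248). These are the same 4 genes that were called higher in Muscle than in MEF here. The counts of all 2806 listed genes are those fitted here, so the match is no separate evidence. Notch2 and Hes1, called lower in Muscle than in MEF here, are not listed.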

How the data were processed

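The authors deposited raw read counts by gene symbol, with no normalization, for 6 libraries, 2 in each of 3 groups. The authors also deposited log2 fold changes with standard errors, p-values and adjusted p-values for 1 comparison, per the file headers. Trim Galore 0.6.0, HISAT2 2.1.0, featureCounts 1.6.2, DESeq2 1.26.0 and mm10 come from the submitters' processing notes, which give no roles. Neither the annotation nor the strandedness used in counting is stated there. Total counts lay between 16817033 and 24584951 a library, so that 3 counts, the limit for a count of 0, are 0.128 to 0.182 CPM. Groups and replicate numbers came from the sample titles.

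Counts were fitted in R 4.3.3 with edgeR 4.0.16: filterByExpr (17400 genes kept), TMM scaling, 1 quasi-likelihood model (robust, legacy dispersion) with group as its term over all 6 libraries, 3 residual degrees of freedom, and F tests adjusted by Benjamini-Hochberg over all tested genes, called under 0.05. The SE is the log2 fold change divided by the square root of F. The biological coefficient of variation was 27.3%. Levels per length used merged GENCODE M21 exons. Estimated fold changes were checked on simulated counts with the same dispersion for every gene and no replicate differences along GC. Such counts do not check the p-values of the real libraries. The 16 alternatives are 3 other scalings, DESeq2 1.42.0, newer dispersion, 2 other filters, the compared groups only, the replicate block, each library left out, and a GC offset, the last chosen after seeing the data.

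Genes were named by this rule: the 10 Notch genes always, up to 2 called genes in each direction from each other pathway list, defining markers at 0 or moving with a Notch gene, and the 2 nearest profiles of each Notch gene. The text names fewer than the rule allows, and Rbpj, Ncstn, Hes5 and Dcx are named for their role or after their values were seen. The Notch genes and all lists were chosen with earlier results of these data known. Of the lists, 153 of 153 symbols were in the table. Gene models of 5 of the 10 Notch genes overlap another gene, and their counts are uncertain to that extent.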

Additional observations from a re-analysis of the deposited data

How the results depend on the processing

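Over the 10 Notch genes and 3 comparisons, 428 alternative values kept direction and call, 32 lost the call, 4 gained it and 16 changed sign. The sign changes were in small differences that were not called. Leaving out 1 library at a time gave Notch1 a log2 range of -0.66 to 0.45 in Direct reprogramming versus MEF, -0.39 to 0.42 in Muscle versus MEF and -0.60 to 0.46 in Direct reprogramming versus Muscle, Notch3 -0.92 to 0.22 in Direct reprogramming versus MEF, and, in Direct reprogramming versus Muscle, Notch2 -0.40 to 0.42 and Hes1 -0.30 to 0.12. With the GC offset, Notch1 was 0.14, 0.15 and -0.00 in these 3 comparisons, and Hes1 was 0.00 in Direct reprogramming versus Muscle with library totals only. The cause of these changes was not tested.

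Leaving out 1 library gave 0 to 3 Notch genes lower in Direct reprogramming than MEF, 0 to 2 lower in Muscle than MEF, and 0 to 1 higher and 0 to 1 lower in Direct reprogramming than Muscle. Over all tested genes it gave 1280 to 1926 lower in Direct reprogramming than MEF (1280 without Direct reprogramming replicate 1), 1980 to 3223 higher and 1778 to 3445 lower in Muscle than MEF (1980 and 1778 without Muscle replicate 2, 2118 lower without Muscle replicate 1), and 589 to 1616 higher and 140 to 605 lower in Direct reprogramming than Muscle. In that comparison 743 were higher and 165 lower without Muscle replicate 1, 589 and 140 without Muscle replicate 2, and 228 were lower without Direct reprogramming replicate 1. Fewer libraries enter these fits.

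With the compared groups only, 0 Notch genes were lower in Direct reprogramming than MEF. Without the low-count filter, 670 genes were lower in Direct reprogramming than Muscle, against 428. With the GC offset, 3272 genes were lower in Direct reprogramming than MEF, and against Muscle 2026 were higher and 1230 lower, with 4 Notch genes lower (Notch3, Dll1, Jag2 and Heyl), beside 1319 and 428 without it. Replicate 1 deviations correlated at 0.42 between Muscle and MEF, -0.65 between Direct reprogramming and MEF, and -0.38 between Direct reprogramming and Muscle. The replicate differences along GC enter these correlations, so they cannot tell if same-numbered libraries were paired. With the replicate block, 0 Notch genes were lower in Direct reprogramming than MEF, 1 was lower in Muscle than MEF, 0 were higher in Direct reprogramming than Muscle, and 265 of all genes were lower there.

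With library totals only, the median of all genes moved to 0.11 in Direct reprogramming versus Muscle. Depth limits Jag2 in MEF, Pax7 outside Muscle and Dll1 in MEF, where few reads were counted. With 2 libraries a group, only large differences pass, so genes without a call are not shown to be alike.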
